A study of Mus musculus with 8 samples.

Results

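Adgrg1, Adgrg3 and Adgre5 are genes of the adhesion G protein-coupled receptor family, and they are described here in sorted mouse bone marrow T cells. They are 3 of 4 genes chosen by symbol, as Adgrg1 and its close or leukocyte-expressed relatives, and each was found once among the 32285 genes counted, next to 26 genes of the same family that were not chosen. The cells came from mice that carry a knock-in of the leukemia fusion Runx1::Runx1t1. The Runx1::Runx1t1 group was Runx1Runx1t1/+; Mx1-Cre, in which interferon-driven Cre turns the fusion on. The control group was Runx1Runx1t1/+ littermates without Cre, which the sample labels give as WT. Mice of both groups were C57BL/6 and were given Poly(I:C), an agent that induces interferon, at 5 mg/kg in 4 injections. T cells were taken 4 weeks after induction, enriched by negative selection and sorted as living CD3+ cells without mCherry, the reporter of the fusion, so the sorted cells of the fusion mice are those that do not carry the reporter. Each group had 2 libraries of gene expression with 2 matched T cell receptor (TCR) libraries, and each library pooled 2 mice. The ages of the mice are not given in the sources used here.

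Adhesion G protein-coupled receptors carry a long extracellular part that is cut from the membrane part by the receptor itself and stays attached to it, and pulling on that part exposes a tethered stretch that activates the receptor. Many of them signal through G12 and G13 proteins to the small GTPase RhoA and so act on cell shape, adhesion and migration. Adgrg1 (GPR56) is known from hematopoietic stem and progenitor cells, cytotoxic lymphocytes and the developing brain. Adgrg3 (GPR97) is best known from granulocytes, and Adgre5 (CD97) is found on most leukocytes and binds CD55 and THY1.

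Adgrg1 and Adgrg3 lie side by side on the plus strand of chromosome 8 of build GRCm38. In the GENCODE annotation Adgrg1 spans chr8:94974751-95014217 and Adgrg3 spans chr8:95017692-95045250, with a gap of 3474 bases and 0 protein-coding genes between them. Adgre5 lies apart, on the minus strand at chr8:83723251-83741326, with 11233424 bases and 134 protein-coding genes between it and Adgrg1. The 250 bases before each annotated RefSeq start (GRCm38.p6, plus strand) are printed because these neighbors were both highest in the same class of cells. They run over chr8:94976859-94977108 and chr8:94984149-94984398 for 2 starts of Adgrg1, both inside the GENCODE span of that gene, and chr8:95017442-95017691 for Adgrg3. RefSeq starts were matched for 2 of the 3 genes, and Adgre5 is named only. Capitals mark matches to either strand of TGTGGT for Runx factors, AGATAA for the Gata factors or AGGAAG for Ets factors, which here is 1 AGGAAG before Adgrg3.
Adgrg1 (first start): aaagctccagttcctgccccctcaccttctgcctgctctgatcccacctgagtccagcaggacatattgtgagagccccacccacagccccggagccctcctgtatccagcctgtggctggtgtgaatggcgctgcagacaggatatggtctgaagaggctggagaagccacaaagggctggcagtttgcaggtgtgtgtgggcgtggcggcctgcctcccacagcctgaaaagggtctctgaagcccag
Adgrg1 (second start): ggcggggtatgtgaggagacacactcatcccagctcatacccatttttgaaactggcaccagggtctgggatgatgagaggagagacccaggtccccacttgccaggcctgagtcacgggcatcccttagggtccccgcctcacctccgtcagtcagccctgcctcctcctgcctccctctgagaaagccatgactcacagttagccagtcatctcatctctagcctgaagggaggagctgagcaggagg
Adgrg3: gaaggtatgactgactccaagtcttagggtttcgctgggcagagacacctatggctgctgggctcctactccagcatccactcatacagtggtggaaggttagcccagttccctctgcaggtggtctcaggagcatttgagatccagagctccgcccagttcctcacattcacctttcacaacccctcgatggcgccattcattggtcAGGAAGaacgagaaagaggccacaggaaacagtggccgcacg
Windows of the same length before 32851 RefSeq starts held TGTGGT in 14.0%, AGATAA in 9.99% and AGGAAG in 29.5%, on either strand, so each match is a common one. The letters searched are not in either Adgrg1 window.

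The 4 libraries held 13633 to 14664 barcodes and 90958101 to 102883449 UMIs (unique molecular identifiers, each counting 1 captured RNA molecule). After filters 48906 cells were kept. Libraries shared 256 to 306 barcodes a pair. Cells were put in classes by a few gating genes and by their TCR: 26093 Cd8+ and 7031 Cd4+ T cells, 8673 co-receptor-negative T cells (a TCR beta chain, and no UMI of Cd4, Cd8a or Cd8b1), 1836 gamma-delta T cells (Trdc) and 683 Kit Cd34 progenitors, which have a UMI of each of these stem and progenitor genes and no TCR chain. The summed level of 5 T cell markers was 2761 to 4204 CPM in the T cell classes and 16.4 to 55.1 in the progenitors, and that of 6 gamma-delta markers was 808.5 to 1057 in the gamma-delta class. The T cell markers Cd3d, Cd3e and Cd3g and the gamma-delta marker Trdc were also gating genes. Part of these levels was thus set by the gating. Of the co-receptor-negative cells, 2155 clustered with Cd4+ cells, so the class is mixed by that measure. Its summed level of 6 neutrophil markers was 607 in control pool 1 and 1.46 to 18.2 in the other 3 pools. All levels are in CPM, a gene's UMIs per 1000000 UMIs of a class in a pool, and they compare a gene between classes, not one gene with another. A lower level can mean less RNA per cell or fewer expressing cells. Shares of cells with a UMI are given with their Wilson 95% intervals where single pools are compared, and intervals cover counting error only. With 2 pools a group, a permutation test cannot go below p = 0.33, so group differences rest on edgeR fits across all genes.

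Adgrg1 and Adgrg3 were both highest in the progenitors, while Adgre5 was lowest there. Adgrg1 stood at 358 and 376 CPM in the progenitors of Runx1::Runx1t1 pools 1 and 2 and at 748 and 721 in those of control pools 1 and 2. The Cd8+ values were 10.1, 58.7, 4.60 and 6.58 in the same order of pools. Every progenitor pool lay above every T cell pool, and Runx1::Runx1t1 pool 2 stood apart among the Cd8+ values. In Cd4+ cells Adgrg1 was at 15.3, 17.0, 5.81 and 10.6, in co-receptor-negative cells at 1.92, 6.22, 4.70 and 10.8, and in gamma-delta cells at 5.45, 7.15, 6.18 and 2.56. The mean over pools ran from 551 ± 213 (SD, n = 4) in progenitors through 20 ± 25.9 in Cd8+, 12.2 ± 5.02 in Cd4+ and 5.91 ± 3.71 in co-receptor-negative cells to 5.34 ± 1.98 in gamma-delta cells, and the pool values of each T cell class overlapped those of the next. Between 91.7% and 98.3% of progenitors had an Adgrg1 UMI. Among Cd8+ cells the share was 4.50%, 23.7%, 1.24% and 1.85%.

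**Figure D1:**
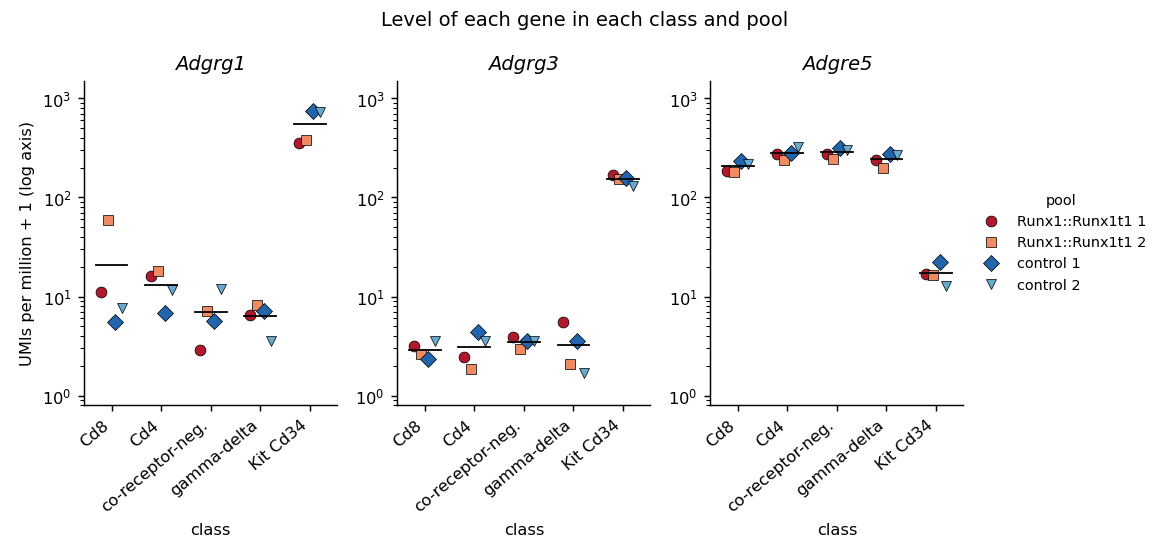
Level of each of the 3 genes (CPM plus 1, log axis) in 5 classes of cells. Each point is 1 pool and each bar the mean of 4 pools. Adgrg1 and Adgrg3 are highest in the Kit Cd34 class and Adgre5 is lowest there.

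Adgrg3 had the order of Adgrg1 between progenitors and T cells and was low in every T cell class. It was at 169, 155, 158 and 130 CPM in the progenitors of Runx1::Runx1t1 pools 1 and 2 and control pools 1 and 2, with a UMI in 67.1% to 86.8% of cells. The 4 groups of T cells had means of 1.92 to 2.49, and their pool values overlapped. Adgre5 was broadly expressed in T cells, with 186, 179, 235 and 218 CPM in Cd8+ and 271, 237, 282 and 322 in Cd4+ cells. Co-receptor-negative cells had 275, 246, 317 and 301 and gamma-delta cells 237, 199, 277 and 269, so the pool values of the T cell classes overlapped. Progenitors had 15.8, 15.5, 21.5 and 11.8, and no progenitor pool overlapped a T cell pool.

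The classes were compared by edgeR on summed UMIs with the pool as a block, and p-values were adjusted over all genes tested. Adgrg1 was chosen with its Cd8+ pattern known, so its p-values against Cd8+ cells are not independent of that choice. Against Cd8+ cells, the progenitors differed in all 3 genes, where 68% of all genes tested were called. Adgrg1 was 28.2-fold higher (log2 4.82, SE 0.57, edgeR adjusted p = 7.1e-07) and Adgrg3 was 57.7-fold higher (log2 5.85, SE 0.25, edgeR adjusted p = 2.4e-12). Adgre5 was 19.0-fold lower (log2 -4.25, SE 0.14, edgeR adjusted p = 3.9e-14). Cd4+ cells differed from Cd8+ cells in 0 of the 3 genes, where 28.8% of all genes were called. By edgeR 0 were at an unadjusted p under 0.05, and DESeq2 also called 0. Adgre5 and Adgrg3 each gained a call under 1 alternative. Adgrg1 had a log2 difference of -0.52 (SE 0.55, edgeR adjusted p = 0.54) and Adgre5 one of 0.18 (SE 0.10, edgeR adjusted p = 0.20).

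Co-receptor-negative cells differed from Cd8+ cells in Adgre5 alone, 1 of 3 genes, where 14.4% of all genes were called. It was higher by a log2 of 0.33 (SE 0.10, edgeR adjusted p = 0.031), and the call was lost when Runx1::Runx1t1 pool 1 (edgeR adjusted p = 0.15), Runx1::Runx1t1 pool 2 (0.082) or control pool 1 (0.075) was left out. Adgrg1 had a log2 difference of -1.36 (SE 0.59, edgeR adjusted p = 0.14) in that comparison. It was called once cells with a Kit or Cd34 UMI were left out, at a log2 of -2.24 (SE 0.51, edgeR adjusted p = 0.0037). That call is not independent of the choice of Adgrg1, which was made with its Cd8+ pattern known. Gamma-delta cells differed from Cd8+ cells in 0 of the 3 genes, where 9.35% of all genes were called. Unadjusted p-values in that fit ran from 0.058 (Adgrg1, log2 -1.62, SE 0.80) to 0.99 (Adgrg3), so 0 were under 0.05. DESeq2 also called 0.

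**Figure D2:**
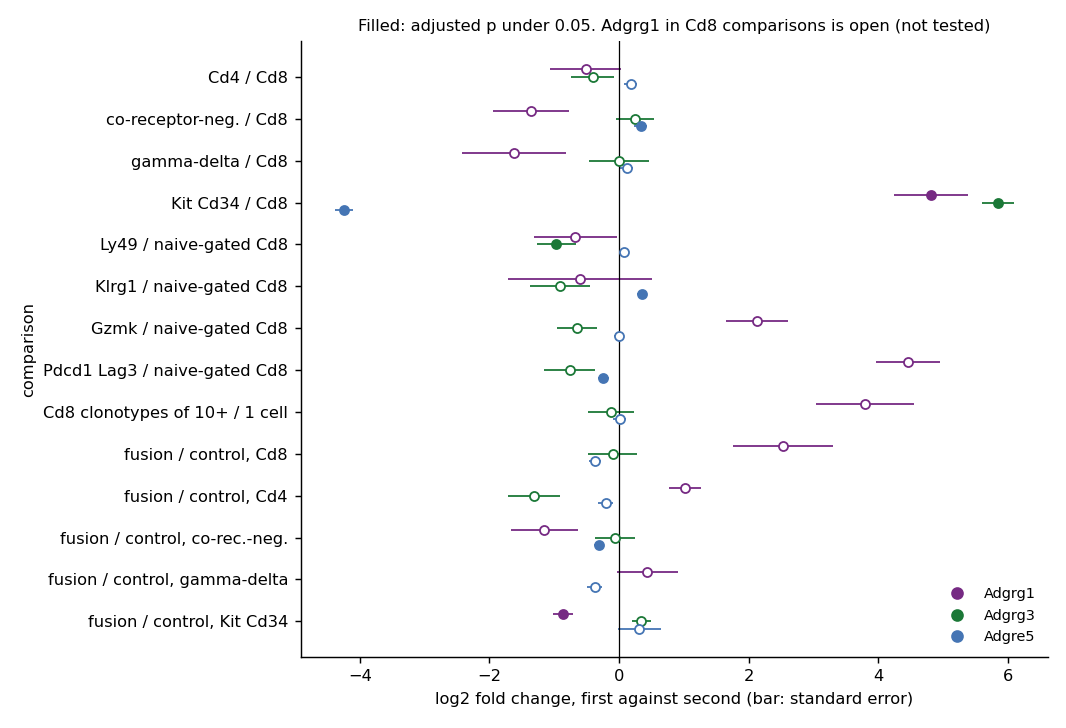
Log2 fold change of each gene (points) with its standard error (bars) in 9 comparisons of classes, states and clonotypes and in 5 comparisons of the Runx1::Runx1t1 group with control. Filled points had an edgeR adjusted p under 0.05. Adgrg1 in comparisons within Cd8+ cells is open because it was not tested there. In the progenitor comparison Adgrg1 and Adgrg3 lie to the right of 0 and Adgre5 to the left.

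Cd8+ cells were split into states by a UMI of a few genes, taken in order: Pdcd1 with Lag3 (inhibitory receptors of exhausted cells), Klrg1 (a receptor of terminal effectors), Gzmk (a granzyme of memory and early dysfunctional cells), Ly49 receptors (11 Klra genes), then Ccr7 (a lymph node homing receptor of naive cells) together with 1 further gene, which gave the naive-gated cells. Adgrg1 was higher in Pdcd1 Lag3 than in naive-gated cells. Naive-gated cells had Adgrg1 at 2.41, 3.03, 4.10 and 7.81 CPM in Runx1::Runx1t1 pools 1 and 2 and control pools 1 and 2. Gzmk cells had 16.1, 66.6, 5.86 and 6.69, and Pdcd1 Lag3 cells had 131, 201, 33.2 and 36.5. Every Pdcd1 Lag3 pool lay above every naive-gated pool, and in that state both fusion pools were above both control pools. Ly49 cells (0.616 to 5.17) and Klrg1 cells (0.909 to 10.4) overlapped the naive-gated range. The share of Pdcd1 Lag3 cells with an Adgrg1 UMI was 45.6% (95% interval 40.8 to 50.5) of 399 cells, 66.6% (64.4 to 68.6) of 1905, 21.6% (11.4 to 37.2) of 37 and 20% (9.51 to 37.3) of 30. After thinning each cell to 2000 UMIs the shares were 18.0%, 33.4%, 13.5% and 10.0%. Naive-gated cells, read here as the background, had unthinned shares of 0.945% to 1.5%, with median depths of 6866 to 8849 UMIs against 5218 to 6144 in Pdcd1 Lag3 cells. Because Adgrg1 was chosen with its Cd8+ pattern known, its log2 differences from naive-gated cells are given without a p: 4.45 (SE 0.49) for Pdcd1 Lag3, 2.13 (SE 0.48) for Gzmk, -0.60 (SE 1.10) for Klrg1 and -0.67 (SE 0.64) for Ly49 cells. The Pdcd1 Lag3 value was 3.96 without Runx1::Runx1t1 pool 1, 5.04 without control pool 2 and 6.21 without cells that had a Kit or Cd34 UMI. The Gzmk value was 0.93 without Runx1::Runx1t1 pool 2, 2.91 without control pool 2, 1.61 without the largest clonotypes and 3.90 without the Kit or Cd34 cells. Without those cells the Klrg1 and Ly49 values turned to 0.34 and 0.42.

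**Figure D3:**
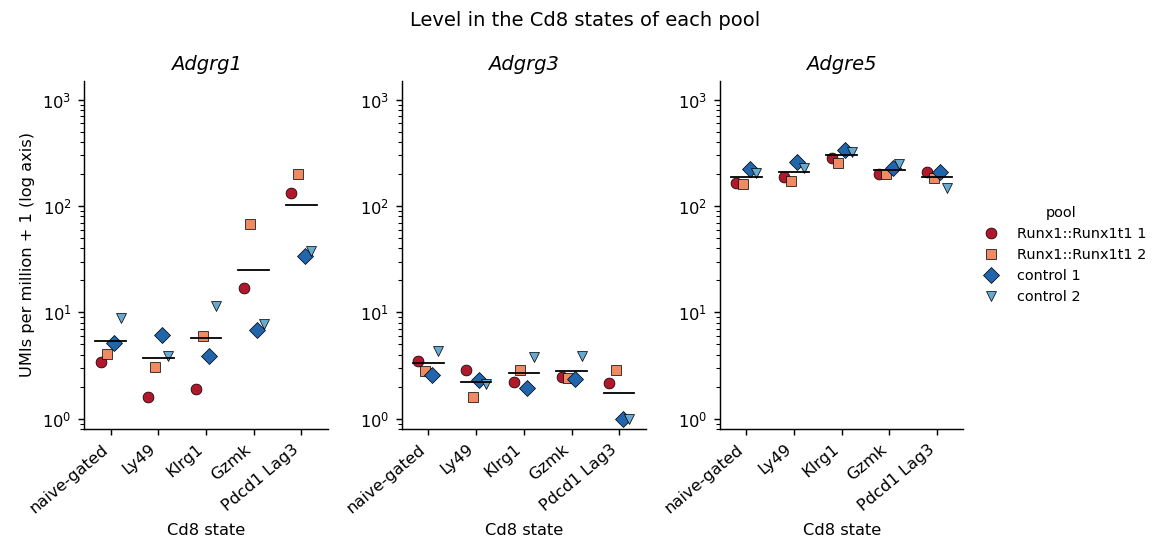
Level of Adgrg1, Adgrg3 and Adgre5 (CPM plus 1, log axis) in 5 states of Cd8+ T cells. Each point is 1 pool and each bar the mean of 4 pools. From naive-gated to Pdcd1 Lag3 cells Adgrg1 is higher, while Adgrg3 stays low and Adgre5 stays within 146 to 336 CPM in every state.

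Adgre5 was at 164, 160, 221 and 202 CPM in naive-gated cells and at 210, 184, 209 and 146 in Pdcd1 Lag3 cells, and the pools overlapped. With the pool as a block it was lower in Pdcd1 Lag3 cells by a log2 of -0.24 (SE 0.083, edgeR adjusted p = 0.015), the 1 relative of 2 called where 56% of all genes were. That call was kept under 5 alternatives and lost under 5. Among the losses were the fits without Runx1::Runx1t1 pool 2 (edgeR adjusted p = 0.075), control pool 1 (0.069) or control pool 2 (0.050). Within the fusion pools the level itself was higher in Pdcd1 Lag3 cells (210 against 164 and 184 against 160), opposite to the fitted direction. In the control pools it was lower (209 against 221 and 146 against 202), on 37 and 30 such cells. Adgrg3 had 1.15 and 1.87 CPM in the Pdcd1 Lag3 cells of the fusion pools and 0 UMIs in both control pools, with a log2 difference of -0.76 (SE 0.39, edgeR adjusted p = 0.10).

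In Klrg1 cells 1 of 2 relatives was called, where 42.6% of all genes were. Adgre5 was higher there, at 284, 256, 336 and 324 CPM, and every pool lay above its own naive-gated level and above all 4 of them (log2 0.35, SE 0.076, edgeR adjusted p = 0.00075). Gzmk cells, which were without the Pdcd1 Lag3 pair, had Adgre5 at 198, 200, 228 and 247, and its log2 difference from naive-gated cells was 0.00 (SE 0.072, edgeR adjusted p = 0.98). There 0 of 2 relatives were called by edgeR or DESeq2, where edgeR called 44.7% of all genes, and 1 had an unadjusted p under 0.05, namely Adgrg3 (log2 -0.65, SE 0.31, edgeR adjusted p = 0.088). Without cells that had a Kit or Cd34 UMI that value was -1.44 (edgeR adjusted p = 0.0039). Of the relatives, Adgrg3 was called in Ly49 cells, where 29.3% of all genes were, with a log2 of -0.97 (SE 0.30, edgeR adjusted p = 0.016), on levels of 0.595 to 1.85. That call was lost without control pool 2 (edgeR adjusted p = 0.19) and without cells that had a Kit or Cd34 UMI (0.13).

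The same cells were then split by whether they had an Adgrg1 UMI. Of 26093 Cd8+ cells 2154 were Adgrg1-positive, 68.0% of them in the Pdcd1 Lag3 state and 19.2% in the Gzmk state. Of the positive cells 61.1% and 76.3% were in the Pdcd1 Lag3 state in the fusion pools, against 11.1% and 4.88% in the control pools. With the cells of the 4 pools merged, Adgre5 was found in 65.5% of the positive and in 71.1% of the negative cells. After thinning to 2000 UMIs these shares were 29.0% and 33.1%. Of the positive cells 1661 came from Runx1::Runx1t1 pool 2, so the merged shares also hold differences between pools. By pool the positive and negative shares were 62.4% and 70.1% in Runx1::Runx1t1 pool 1, 64.5% and 69.1% in Runx1::Runx1t1 pool 2, 83.3% and 73.8% in control pool 1 and 74.8% and 71.2% in control pool 2. The positive share was thus the lower one in the fusion pools and the higher one in the control pools, but in control pool 2 the thinned shares were 30.1% and 34.9%, the other way round, so no direction is read for that pool. Over the summed UMIs of 4 pools 10.2% of all genes were called, and 1 of 2 relatives was. Adgre5 was not, with a log2 difference of -0.42 (SE 0.11, edgeR adjusted p = 0.059), and it was called under 5 of 12 alternatives, among them DESeq2 (-0.43, adjusted p = 0.0078). Without cells that had a Kit or Cd34 UMI it was -0.08 (edgeR adjusted p = 0.67).

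Adgrg3 was higher in Adgrg1-positive Cd8+ cells by a log2 of 3.70 (SE 0.62, edgeR adjusted p = 0.016), and cells with progenitor genes moved with it. Kit or Cd34 UMIs were found in 7.05%, 2.95%, 20.8% and 22.8% of the positive cells of the 4 pools. Without them the Adgrg3 difference was -0.08 (edgeR adjusted p = 0.95). Without Runx1::Runx1t1 pool 1 or control pool 1 the Adgrg3 call was also lost (edgeR adjusted p = 0.073 and 0.061). Naive-gated cells showed the same pattern cell by cell. Of 35 naive-gated cells with 2 or more Adgrg1 UMIs, 97.1% had a Kit or Cd34 UMI and 77.1% an Adgrg3 UMI. Of 99 cells with exactly 1 Adgrg1 UMI these shares were 6.06% and 5.05%, and of 11020 cells with 0 they were 1.61% and 1.13%. The 35 cells were deeper, with a median of 20623 UMIs against 7829 and 7576 in the others, and after thinning the Adgrg3 shares were 25.7%, 0% and 0.318%. Co-receptor-negative cells had a Kit or Cd34 UMI in 91.3% of the 23 cells with 2 or more Adgrg1 UMIs. The fit of Adgrg1-positive against negative co-receptor-negative cells, on 3 pools since Runx1::Runx1t1 pool 1 had 18 positive cells, gave Adgrg3 a log2 of 4.80 (SE 0.44, edgeR adjusted p = 1.5e-05) and Adgre5 one of -0.81 (SE 0.14, edgeR adjusted p = 0.0024), where 8.48% of all genes were called. Whether these barcodes held a T cell and a progenitor together was not tested.

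**Figure D4:**
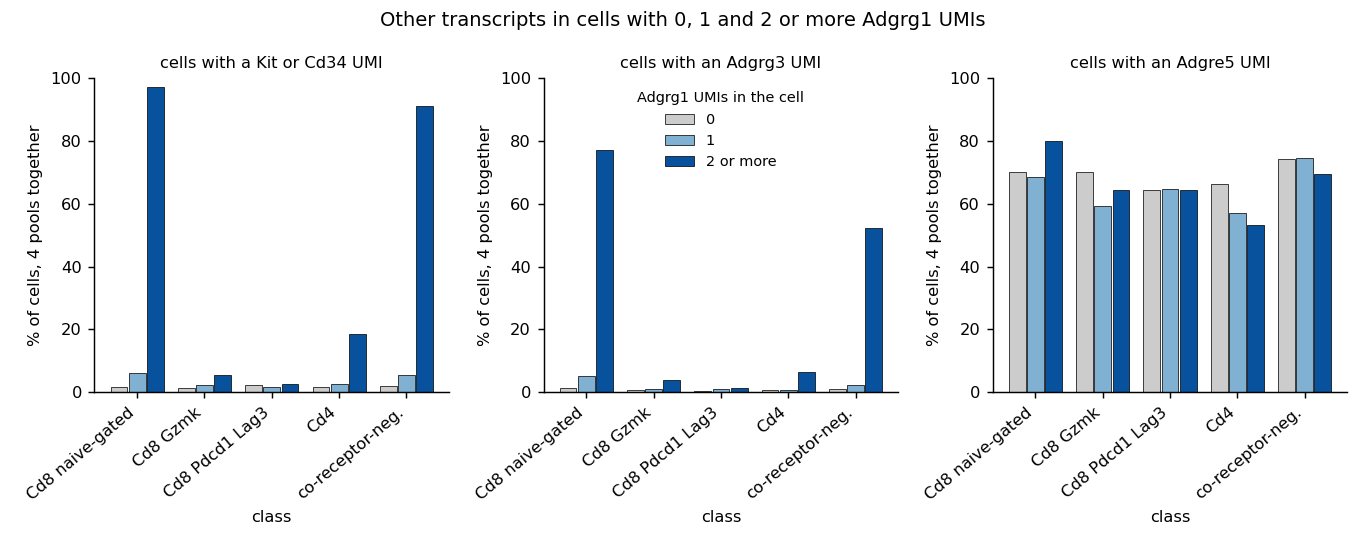
Share of cells (percent, 4 pools together) that had a Kit or Cd34 UMI, an Adgrg3 UMI or an Adgre5 UMI, in cells with 0, exactly 1 and 2 or more Adgrg1 UMIs, by class. In naive-gated cells the share with Kit or Cd34 is 97.1% at 2 or more Adgrg1 UMIs and 6.06% at exactly 1.

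Within the Pdcd1 Lag3 state Kit or Cd34 UMIs were found in 2.19% of positive and 2.21% of negative cells. Of 4 progenitor markers tested there 2 were called higher in positive cells (median log2 0.92), and without the Kit or Cd34 cells 0 of 2 were (median -0.16). With the pools merged, Adgre5 was found in 64.5% of 1464 Adgrg1-positive and in 64.4% of 907 negative cells. The fit, on the 2 fusion pools since each control pool had fewer than 20 positive cells, gave Adgre5, the 1 relative tested, a log2 of -0.05 (SE 0.085, edgeR adjusted p = 0.87), where 6.85% of all genes were called. Cd4+ cells had 319 Adgrg1-positive cells, of which 58.0% had both Pdcd1 and Lag3, against 8.60% of the negative cells. Their fit rested on 3 pools, since control pool 1 had 10 positive cells, and 5.9% of all genes were called. Adgre5, the 1 relative tested, was lower (log2 -0.62, SE 0.13, edgeR adjusted p = 0.022), a call lost without Runx1::Runx1t1 pool 1 (edgeR adjusted p = 0.50) or pool 2 (0.25), without the replicate block (0.094) and after thinning (0.096), and by DESeq2 (adjusted p = 0.064). Progenitor markers moved with it, with 8 of 8 called higher (median log2 4.56) and a Kit or Cd34 UMI in 7.84% of positive and 1.53% of negative cells. With the Kit or Cd34 cells left out the Adgre5 difference was -0.58 (edgeR adjusted p = 1.9e-05), in a fit with 1682 of 11010 genes called. Control pool 2 had 23 positive cells before that step, close to the 20 that a sum needed. That fit may thus rest on the fusion pools alone, and its p is not set beside that of the main fit. With the pools merged, Adgre5 was found in 55.8% of the positive and 66.4% of the negative Cd4+ cells. The positive share was the lower one in each of the 4 pools. Cd4+ cells with both Pdcd1 and Lag3, whether Adgrg1-positive or not, had Adgre5 in a mean of 57.5% of cells over the pools. For all Cd4+ cells that mean was 66.1%. The part of this state in the Adgre5 difference was not tested.

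Clonotypes, the cells of a pool that share their TCR chains, differed widely in Adgrg1. Cd8+ clonotypes of at least 20 cells numbered 12 and 14 in the 2 Runx1::Runx1t1 pools, 0 in control pool 1 and 4 in control pool 2. The clonotypes below were grouped by Adgrg1 after their values were seen, so they are described with no test. In 13 clonotypes, all from the Runx1::Runx1t1 group and holding 1934 cells, 40.2% to 74.2% of cells had an Adgrg1 UMI. The median share of their cells with both Pdcd1 and Lag3 was 78.6% (range 59.8 to 90.6). In 15 clonotypes, 609 cells and all 4 control clonotypes among them, at most 14.6% of cells had Adgrg1, and the share with Pdcd1 and Lag3 had a median of 0% (range 0 to 73.2). The remaining 2 clonotypes lay between. Adgre5 had medians of 61.2% (range 47.6 to 81.2) and 72.6% (range 58.3 to 96.3) in the high and low clonotypes, and the ranges overlapped.

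The largest clonotype, 1085 cells of Runx1::Runx1t1 pool 2, had Adgrg1 in 74.2% (95% interval 71.5 to 76.7) of its cells and Adgre5 in 61.2%. Its Adgrg1 share was 74.8% in its Pdcd1 Lag3 cells and 72.1% in its other cells. The next clonotype of that pool, 163 cells of which 89.0% were in the Gzmk state, had Adgrg1 in 4.29% and Adgre5 in 58.3%. The third, 157 cells, had Adgrg1 in 65.0% of its cells, with 73.0% in Pdcd1 Lag3 cells and 42.9% in the others. In Runx1::Runx1t1 pool 1 the largest clonotype, 111 cells, had Adgrg1 in 70.3%, with 74.1% of its Pdcd1 Lag3 cells and 57.7% (95% interval 38.9 to 74.5) of its 26 other cells. High Pdcd1 Lag3 shares did not always go with high Adgrg1. One clonotype of 41 cells in Runx1::Runx1t1 pool 2 had Pdcd1 and Lag3 in 73.2% but Adgrg1 in 14.6%, and one of 33 cells in Runx1::Runx1t1 pool 1 had them in 51.5% and 12.1%.

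**Figure D5:**
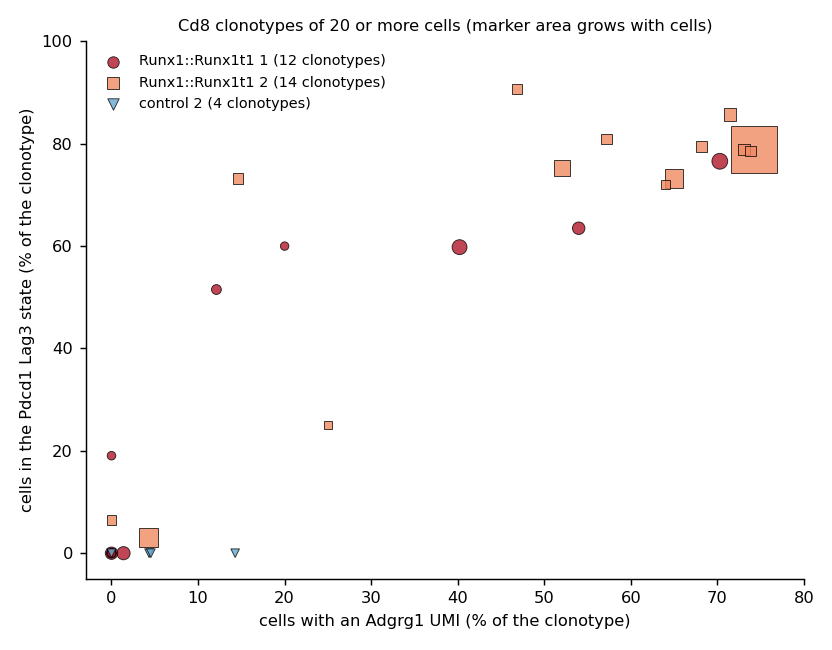
Cd8+ clonotypes of at least 20 cells, 1 point each, by the percent of cells with an Adgrg1 UMI (horizontal axis) and the percent in the Pdcd1 Lag3 state (vertical axis). Marker area grows with the number of cells and color gives the pool. The clonotype of 1085 cells is at the upper right, at 74.2% and 78.9%, and the 4 control clonotypes are at 0% on the vertical axis.

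Over all expanded clonotypes (10 or more Cd8+ cells) against clonotypes of 1 cell, Adgrg1 was at 79.3, 198, 4.07 and 11.4 CPM against 2.41, 4.17, 4.0 and 4.28, with a log2 difference of 3.80 (SE 0.76) that is given without a p and was 2.91 without Runx1::Runx1t1 pool 2. Both fusion pools were high and control pool 1 was level with its single cells. Adgre5 was at 232, 184, 297 and 262 against 173, 170, 230 and 211, higher in the expanded clonotypes of each pool as a level, while its fitted log2 difference was 0.01 (SE 0.096, edgeR adjusted p = 0.97). By edgeR 0 of 2 relatives were called where 19.2% of all genes were, 0 were at an unadjusted p under 0.05, and DESeq2 called 0.

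Runx1::Runx1t1 pools were compared with control pools in each class. Among Cd8+ cells 0.00754% of all genes were called, that is 1 gene of 13270, with 2855 genes at an unadjusted p under 0.05 and 850 called by DESeq2. Of the 2 relatives edgeR called 0. Adgre5 had a log2 difference of -0.37 (SE 0.091, unadjusted p = 0.0076, edgeR adjusted p = 0.12) and Adgrg3 one of -0.10 (SE 0.38). DESeq2 called Adgre5 (adjusted p = 0.012). Adgrg1 was higher by a log2 of 2.52 (SE 0.77, given without a p), which was 0.85 without Runx1::Runx1t1 pool 2 and 4.04 without cells that had a Kit or Cd34 UMI. Within states its log2 difference was 2.19 (SE 0.30) in Pdcd1 Lag3 cells, 2.63 (SE 0.64) in Gzmk cells, -1.12 (SE 0.30) in naive-gated and -1.67 (SE 0.48) in Ly49 cells, again with no p. The Gzmk value was 1.32 without Runx1::Runx1t1 pool 2 and 3.28 without Runx1::Runx1t1 pool 1, and the Pdcd1 Lag3 value was 1.87 without Runx1::Runx1t1 pool 2. Without cells that had a Kit or Cd34 UMI the naive-gated and Ly49 values were -0.28 and -0.57.

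Cd4+ cells had Adgrg1 at 15.3 and 17.0 CPM in the Runx1::Runx1t1 pools and 5.81 and 10.6 in the control pools, with no overlap. The log2 difference of 1.02 (SE 0.25) was not called (unadjusted p = 0.0044, edgeR adjusted p = 0.096), and edgeR called 0 of 3 members where 2.29% of all genes were called. At an unadjusted p under 0.05 there were 2, Adgrg1 and Adgrg3 (log2 -1.31, SE 0.40), and DESeq2 called 0 of 3. Without cells that had a Kit or Cd34 UMI it was 2.53 (SE 0.31, edgeR adjusted p = 0.015). It was also called without control pool 2, at 1.54 (edgeR adjusted p = 0.0023). In Cd4+ cells with both Pdcd1 and Lag3 the level was 71.5 and 66.7 in the fusion pools and 10.3 and 19.4 in the control pools. The shares with an Adgrg1 UMI were 27.8% (95% interval 23.1 to 33.0) of 306 cells, 29.0% (24.3 to 34.1) of 328, 2.91% (0.995 to 8.22) of 103 and 8.0% (2.22 to 25.0) of 25.

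Co-receptor-negative cells of the Runx1::Runx1t1 group had less Adgre5, at 275 and 246 against 317 and 301 CPM (log2 -0.32, SE 0.077, edgeR adjusted p = 0.032), 1 of 3 members where 11.1% of all genes were called. The summed level of 5 natural killer cell markers moved with it, at 666 and 518 against 1312 and 1239 CPM. Restricted to cells that also lay in a co-receptor-negative cluster, the difference was -0.04 (edgeR adjusted p = 0.86). Without Runx1::Runx1t1 pool 2 it was -0.23 (edgeR adjusted p = 0.14). Adgrg1 had a log2 difference of -1.15 (SE 0.52, edgeR adjusted p = 0.20), which was called without Runx1::Runx1t1 pool 2 (-2.07, edgeR adjusted p = 0.0094) or control pool 1 (-1.65, edgeR adjusted p = 7.4e-08). With the Kit or Cd34 cells left out it was 0.62 (SE 0.54, edgeR adjusted p = 0.52). In the control pools all 5 and 12 cells with 2 or more Adgrg1 UMIs had such a UMI, and the shares of cells with Adgrg1 overlapped between groups (0.956% and 2.23% against 0.725% and 1.82%). Naive-gated Cd8+ cells also had less Adgre5 in the fusion pools, at 164 and 160 against 221 and 202 (log2 -0.36, SE 0.078, edgeR adjusted p = 0.031), 1 of 2 relatives where 6.14% of all genes were called. The call was lost without Runx1::Runx1t1 pool 1 (edgeR adjusted p = 0.12), Runx1::Runx1t1 pool 2 (0.27) or control pool 1 (0.14).

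Ly49 cells had less Adgre5 in the fusion pools (185 and 171 against 256 and 228, log2 -0.44, SE 0.090, edgeR adjusted p = 0.016), the 1 relative of 2 called where 6.16% of all genes were, and the call was lost without Runx1::Runx1t1 pool 2 (edgeR adjusted p = 0.054) or control pool 1 (0.12). In Pdcd1 Lag3 cells, on 37 and 30 control cells, Adgre5 was the 1 relative tested and was not called by edgeR or DESeq2 (log2 0.07, SE 0.19, edgeR unadjusted p = 0.74), where edgeR called 2.07% of all genes. In Gzmk cells it was again the 1 relative tested and was not called by either tool (log2 -0.31, SE 0.095, edgeR unadjusted p = 0.011, adjusted p = 0.16), where edgeR called 0.903% of all genes. Without Runx1::Runx1t1 pool 1 it was called at -0.34 (edgeR adjusted p = 0.028). Gamma-delta cells had 0 of 2 members called by edgeR, where 0.173% of all genes were. Adgre5 was the 1 member at an unadjusted p under 0.05 (log2 -0.38, SE 0.11, edgeR adjusted p = 0.27), and DESeq2 called 0. Adgrg3 did not pass the filter on low counts in the Gzmk, Pdcd1 Lag3 and gamma-delta fits.

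In the progenitors Adgrg1 was lower in the Runx1::Runx1t1 group, at 358 and 376 against 748 and 721 CPM. The difference was 1.82-fold (log2 -0.86, SE 0.16, edgeR adjusted p = 0.0011), 1 of 3 members called where 23.2% of all genes were. Adgrg3 differed by a log2 of 0.34 (SE 0.15, edgeR adjusted p = 0.13), and Adgre5 by 0.31 (SE 0.33, edgeR adjusted p = 0.55). The share of progenitors with an Adgrg1 UMI was high in every pool (93.4%, 91.7%, 94.7% and 98.3%), and after thinning it was 44.0%, 48.2%, 57.9% and 79.3%. Positive progenitors held a mean of 4.41, 4.56, 11.6 and 12 Adgrg1 UMIs. Adgrg1 and Adgrg3 were found in the same cell in 72.5%, 69.0%, 81.6% and 66.4% of progenitors, and the ratio of their UMIs was 2.12 and 2.43 in the fusion pools and 4.74 and 5.55 in the control pools. Across thinned cells of a pool the rank correlation of the 2 genes was between -0.048 and 0.017.

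Other genes of the progenitor class moved with the group. Cpa3, a mast cell protease, was at 7545 and 7248 CPM in the fusion pools and at 7.18 and 9.11 in the control pools. Gata2, a factor of stem and mast cell progenitors, was at 221 and 234 against 80.7 and 92.7, while Hlf, a stem cell factor, was at 214 and 226 against 196 and 198. Meis1, another stem cell factor, had the direction of Adgrg1, at 72.2 and 94.1 against 120 and 106. Of the 8 progenitor markers the other 7 had both fusion pools above both control pools, and Kit and Cd34 among them define the class. The share of all genes whose pools separate in this way was not counted, so this is a description only. These markers differed between the groups beside Adgrg1, and their part in the Adgrg1 difference was not tested. Control pool 1 had 38 progenitors, the other pools 168 to 295. Sorted cells were CD3+, so these cells are a remainder of the sort and not a sample of marrow progenitors.

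Genes that work with these receptors were taken from lists. Ligands and partners of Adgrg1 and Adgre5 numbered 7 tested between progenitors and Cd8+ cells, of which 4 were higher and 1 lower (median log2 0.89, against 0.04 over all genes), 5 of 7 where 68% of all genes were called. Plxnb2 (log2 4.75) and the tetraspanin Cd81 (5.30), which binds Adgrg1, were higher in progenitors, and Thy1 was lower (-6.23). Of 14 G protein and RhoA pathway genes 5 were higher and 7 lower (median -0.17), with Gnaq at 3.64. Both counts are read against that same 68%, and the first is close to it. In Adgrg1-positive against negative Cd8+ cells, where 10.2% of all genes were called, 1 ligand was higher and 1 lower of 7 (median 0.00, against 0.03 over all genes), namely Cd81 (log2 3.05, edgeR adjusted p = 0.024) and Thy1 (log2 -0.74, edgeR adjusted p = 0.0088). Of 14 G protein genes 1 was higher, Gnaq (log2 1.86), and 2 were lower, Arhgef1 (-0.50) and Gna13 (-0.38), both parts of the G12 and G13 route to RhoA. Without cells that had a Kit or Cd34 UMI 0 of 6 ligands and 0 of 14 G protein genes were called, and Cd81 was at -0.52 (edgeR adjusted p = 0.53).

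Of 12 cytotoxic genes tested, 2 were higher and 1 lower in Adgrg1-positive Cd8+ cells (median 0.61), and 8 were higher and 0 lower once the Kit or Cd34 cells were left out (median 0.98, against -0.01 over all genes), a fit in which 975 of 11998 genes were called. Gzmk then had a log2 difference of 1.81 (edgeR adjusted p = 0.0052) and Gzmb, a granzyme of killer cells, one of 1.58 (edgeR adjusted p = 0.0067). Among 8 regulators 2 were higher and 0 lower in that fit, one being Prdm1, a factor of effector and exhausted cells (log2 2.11, edgeR adjusted p = 0.0052). Within the Pdcd1 Lag3 state, on the 2 fusion pools, 4 of 11 cytotoxic genes were higher and 3 lower (median 0.14, against 0.00 over all genes) where 6.85% of all genes were called, with Gzma (0.96) and Prf1, the pore-forming perforin (0.58), among the higher and Cx3cr1, Klrg1 and Klrk1 the lower ones. Tcf7, a factor of naive and stem-like T cells, was lower there (log2 -2.08), and 2 of 5 ligands or partners were lower, Cd9 (-0.81) and Cd44 (-0.60). These genes are given from the main setting of that fit. Far fewer genes were called in it by DESeq2, with no replicate block and after thinning, with the counts given further below. Marker lists moved in the same fit. Of 5 T cell markers 3 were higher, of 4 progenitor markers 2 were higher (median 0.92) and of 2 erythroid markers both were lower (median -2.18), and their part in these differences was not tested.

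Between groups the progenitors had 2 of 7 ligands or partners higher and 2 lower (median -0.46, against 0.00 over all genes). Cd55, a ligand of Adgre5, was higher in the fusion pools (log2 3.87) and Tgm2, a ligand of Adgrg1, lower (-2.54). Of 14 G protein genes 7 were higher and 0 lower (median 0.46). In that fit 23.2% of all genes were called. The progenitor markers given above, Cpa3 among them, differed between the same pools, and their part in these list counts was not tested.

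All 30 family genes were in the tables, 8 of them with 0 UMIs, and 12 besides the chosen genes had at least 50 UMIs over the 4 pools. Adgrl4 (ELTD1), best known from blood vessels, had the pattern of Adgrg1 and Adgrg3, with 148 to 355 CPM in progenitors, a UMI in 79.1% of them, and 1.02 to 3.19 in Cd8+ cells. Adgrl1 had the opposite pattern, with 16.5 to 25.4 across Cd8+, Cd4+ and co-receptor-negative cells and 1.43 to 10.8 in progenitors, and a UMI in 9.93% of Cd4+ and 13.4% of co-receptor-negative cells. Celsr1, a receptor of planar cell polarity, was at 6.82 to 12.5 across the 4 T cell classes and 1.60 to 4.78 in progenitors. Of 9 such receptors tested between progenitors and Cd8+ cells, where 68% of all genes were called, 6 were higher (Adgrl4, Adgra3, Adgrg6, Adgrg7, Adgrl2 and Adgrd1) and 3 lower (Adgrb2, Celsr1 and Adgrl1). Adgrb2 was at 3.79 to 5.13 in Cd8+ and 0.342 to 1.57 in Cd4+ cells. Celsr1 (log2 -1.33) and Celsr2 (-1.87) were called lower in Pdcd1 Lag3 than in naive-gated cells, 2 of 5 tested where 56% of all genes were called, a share not above that background. Their pool levels overlapped. Celsr1 was at 2.91 to 16.6 in Pdcd1 Lag3 and 6.85 to 8.26 in naive-gated cells, and Celsr2 at 0 to 3.32 and 0.970 to 1.59.

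Across 42 sums of a class or state in a pool, which share libraries and in part cells, the genes most like Adgrg1 by Pearson correlation of log2(CPM + 1) were Car2 (r = 0.909), Atpif1 (0.895), Laptm4a (0.878), Csnk1e (0.876) and Gabarapl1 (0.862), among 9283 genes. The least like were Tmsb10 (-0.890), Tcf7 (-0.870) and Lef1 (-0.869). Adgrg3 had r = 0.667, rank 589, while Adgre5 had -0.774. Over the 36 sums of T cells alone, with 8924 genes, the leading genes were Cd200r2 (0.881), Slc16a10 (0.860), Cd3g (0.847), Tox (0.845) and Car2 (0.832). Adgre5 was at -0.210 there, so that the opposition of Adgre5 was mostly between progenitors and T cells. Adgrg3 was under the mean of 5 CPM that a gene needed, so it had no value over T cell sums alone.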

How the data were processed

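The authors deposited UMI counts per gene and cell barcode, made with Cell Ranger 6.1.2 on GRCm38 from 10x 5′ libraries, before their own cell filters. The annotation release is not given in the sources used here. They also deposited TCR contig tables, from which chains and clonotypes were read.

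Barcodes with at least 200 genes, 2000 UMIs and at most 15% mitochondrial UMIs were kept, less the doublets marked by Scrublet (expected rate 0.05). Its own threshold was used in 1 library (4.22% removed), and the 5% highest scores, with ties, were removed in the other 3 (5.22% to 5.40%). Classes were gated by UMIs of the named genes and TCR chains; a gamma-delta cell had at least 2 Trdc UMIs. Clusters served only as a check (scanpy 1.11.5).

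Counts were summed per pool and class, where at least 20 cells were present, and tested by edgeR 4.0.16 (TMM, filterByExpr, quasi-likelihood, R 4.3.3) with Benjamini-Hochberg adjustment over all genes at 0.05. Comparisons within pools had the pool as a block. Standard errors were derived as the fold change over the root of F. DESeq2 1.42.0 was an alternative. Fits were tested on simulated data.

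Named genes were the members, family genes with at least 50 UMIs, the 5 genes most and 3 least like Adgrg1, and of each partner list the 4 with the largest called change in Adgrg1-positive Cd8+ cells. List genes named in other comparisons, Cpa3, Gata2 and Hlf were chosen after their values were seen. Of the 4 chosen genes 1, with its results, and 1 gating gene are not reported here. The members and lists were chosen with earlier results of these data known. Leaving out cells with a Kit or Cd34 UMI, the fits within the Pdcd1 Lag3 state and the differences between effects were added after seeing the data. Labels do not give separate preparations, so p-values of the group comparisons measure the spread between pools. Those of comparisons within pools, with the pool as a block, measure how differences varied from pool to pool. All classes were fitted together, as were all Cd8+ states. In these fits the spread is pooled over every class or state and is not that of 1 difference alone.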

Additional observations from a re-analysis of the deposited data

Results flagged for a closer look

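The following differences between group effects were tested after the single effects had been seen, in fits that hold the cells of 2 classes of all 4 pools together. The Runx1::Runx1t1 effect on Adgrg1 in Kit Cd34 progenitors (lower) less that in Cd4+ T cells was a log2 of -1.84 (SE 0.22, edgeR adjusted p = 4.4e-06), where 15.1% of all genes were called. Both fusion pools were below both control pools in the progenitors and above both in the Cd4+ cells. For Adgrg3 the same difference was 1.65 (SE 0.36, edgeR adjusted p = 0.0028). Its levels in Cd4+ cells were 1.43 and 0.876 CPM in the fusion pools and 3.42 and 2.52 in the control pools. Groups of 2 pools were too small for a search for single pools that stand apart.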

How the results depend on the processing

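For 60 values of the 3 genes, 585 alternative values were computed. In 501 of them the side of the threshold did not change, or a value given without a test kept its direction and stayed within its spread. Of the rest, 30 lost and 27 gained a call, 24 values given without a test moved by more than their spread, and 3 reversed. For tested values a change of direction was counted as reversed only where either value was called. Changes of direction between uncalled values are thus among the 501, as for Adgrg1 between groups in co-receptor-negative cells without Kit or Cd34 cells. The reversals were Adgrg3 in Adgrg1-positive Cd8+ cells (-0.076) and Adgrg1 in Klrg1 (0.34) and Ly49 (0.42) against naive-gated cells, each without cells that had a Kit or Cd34 UMI. The cause was not tested.

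Counts of genes called moved in the group comparisons, given here, and in comparisons within pools, given further below. In Cd8+ cells the 1 call became 850 by DESeq2, 924 with no filter, 884 with the replicate block, 5 with doublets kept and 214 without the largest clonotypes, and 1 to 1581 without 1 pool, the most without Runx1::Runx1t1 pool 1. In Cd4+ cells 265 became 529 with the replicate block and 294 to 578 without 1 pool. In co-receptor-negative cells 1309 became 824 by DESeq2, 419 with classes from clusters and 392 in gated cells of such a cluster. In gamma-delta cells 17 became 35 by DESeq2, 412 with no filter, 330 with the replicate block, 7 without Kit or Cd34 cells and 35 to 210 without 1 pool. In progenitors 2344 became 1083 by DESeq2 and 1185 to 2874 without 1 pool. In naive-gated cells 724 became 51 with no filter, 2325 with the replicate block and 20 to 1025 without 1 pool. In Gzmk cells 95 became 160 by DESeq2, 1002 with no filter, 460 with the replicate block and 90 to 999 without 1 pool. In Ly49 cells 676 became 297 by DESeq2, 1949 with the replicate block and 226 to 1059 without 1 pool. In Pdcd1 Lag3 cells 177 became 320 by DESeq2, 623 with no filter, 390 with the replicate block, 70 with doublets kept and 100 to 335 without 1 pool.

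Replicate numbers are shared by only 2 pairs of pools and nothing in the labels ties them, so the replicate block in group comparisons is an alternative only. Under it Adgre5 in Cd8+ cells (-0.37, edgeR adjusted p = 0.048), Adgrg1 in Cd4+ cells (1.04, 0.030), Adgrg1 in co-receptor-negative cells (-1.07, 0.014) and Adgre5 in gamma-delta cells (-0.38, 0.024) gained a call. With no replicate block in the comparisons within pools, Adgre5 in co-receptor-negative against Cd8+ cells (0.33, edgeR adjusted p = 0.23), Adgrg3 in Ly49 against naive-gated cells (-0.99, 0.073) and Adgre5 in Adgrg1-positive Cd4+ cells (-0.65, 0.094) lost their call, and Adgre5 in Adgrg1-positive Cd8+ cells (-0.43, 0.048) gained one.

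Within pools, co-receptor-negative against Cd8+ cells had 1861 genes called, 1100 with no replicate block, 3398 without Kit or Cd34 cells and 866 to 1610 without 1 pool. Gamma-delta against Cd8+ cells had 1205, 753, 2074 and 648 to 1046 in the same order. Ly49 against naive-gated cells had 3273, and 1878 with no replicate block. Expanded against single clonotypes had 2244, 3471 with no replicate block and 598 to 2564 without 1 pool. Adgrg1-positive Cd8+ cells had 1261, 689 at 2 or more UMIs and 57 to 1248 without 1 pool, the fewest without Runx1::Runx1t1 pool 1. Positive Cd4+ cells had 588, 316 by DESeq2, 1158 with no filter, 298 with no replicate block, 1682 without Kit or Cd34 cells, 323 thinned and 204 to 1523 without 1 pool. Positive co-receptor-negative cells had 845, 1411 with no filter and 377 to 1684 without 1 pool. Positive Pdcd1 Lag3 cells had 665, 97 by DESeq2, 40 with no replicate block and 46 thinned. The difference of effects between progenitors and Cd4+ cells had 1826, 695 by DESeq2 and 1131 to 2029 without 1 pool.

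The mean share of cells with an Adgrg1 UMI went to 0.587% in co-receptor-negative, 0.787% in gamma-delta cells and 57.3% in progenitors when cells were thinned, and to 91.6% in progenitors taken from clusters. The correlation of Car2 with Adgrg1 was 0.832 over T cell sums and 0.936 with a pseudocount of 10. No cluster held gamma-delta cells apart, Adgrg1-positive gamma-delta cells were too few to fit (4 to 10 a pool), and Adgrg1-positive Pdcd1 Lag3 cells could not be fitted without a pool. With 2 pools a group and 30 to 38 control cells in the smallest classes, small differences were not detectable at this depth.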

Other observations

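Cells with UMIs of both Cd79a and Cd79b and no TCR chain numbered 21, 6, 44 and 6 in Runx1::Runx1t1 pools 1 and 2 and control pools 1 and 2. Adgre5 was at 178, 237, 320 and 91.6 CPM in them, and Adgrg3 had 0 UMIs in each pool. Adgrg1 was found in 23.8% (5 of 21, 95% interval 10.6 to 45.1) of those cells in Runx1::Runx1t1 pool 1 and in 2.27% in control pool 1, and in 0 of 6 cells in each of the other pools, where the limit of 3 counts allows a share of cells with a UMI of up to 50%.

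Cd8+ cells outside every state had Adgrg1 at 3.95, 9.12, 3.59 and 6.99 CPM. In Cd4+ cells the Gzmk state had 23.5, 15.9, 6.76 and 47.1, where the last is 25 UMIs in 4 of 90 cells. The shares of those cells with an Adgrg1 UMI were 7.65%, 6.06%, 1.85% and 4.44%, so these shares did not overlap between groups while the levels did. After thinning to 2000 UMIs the second fusion pool (2.13%) lay below the second control pool (2.22%), and the unthinned intervals of the control shares (0.328 to 9.77 and 1.74 to 10.9) covered the fusion shares. The Cd4+ naive-gated state had 7.75, 0.558, 18.7 and 1.08, where 18.7 is 18 UMIs in 1 of 178 cells.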
